A study of Mus musculus with 18 samples.

Results

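The contrast examined was the effect of an NFIA transgene in mouse fat tissue set against the effect in fat cells differentiated in culture. It used 12 of the 18 poly(A) RNA-seq libraries of the series, 3 in each of 4 groups. The first pair of groups was inguinal white adipose tissue (iWAT), the fat pad under the skin of the groin, of NFIA-Tg and of wild-type (WT) mice. The second pair was adipocytes derived from the stromal-vascular fraction of inguinal fat (ingSVF), labelled NFIA-Tg and WT, at day 7 of differentiation. All 6 cultures received fetal bovine serum and a first mixture with rosiglitazone, dexamethasone, T3, insulin, indomethacin and isobutylmethylxanthine, and then serum with T3, insulin and rosiglitazone. No source used here names the promoter that drives the transgene, or the age and sex of the mice. Nor do the labels say if the 3 libraries of a group were separate animals or dishes, so p-values measure the spread between these libraries. The remaining 6 libraries, cultures at day 0, entered only checks of the processing.

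NFIA belongs to the nuclear factor I family of transcription factors, with NFIB, NFIC and NFIX. These proteins bind DNA as dimers at a palindrome made of the site TTGGC and its reverse complement GCCAA. In fat, NFIA is known as a partner of PPARγ that takes part in the brown fat gene programme, in which mitochondria burn fatty acids and the uncoupling protein UCP1 releases the energy as heat. A fat pad also holds endothelial cells, macrophages, fibroblasts and blood cells that a culture of differentiated stromal cells largely lacks. In bulk RNA, fewer cells of a type and less RNA per cell cannot be told apart.

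The quantity reported is the genotype effect in iWAT (NFIA-Tg minus WT) minus the genotype effect at day 7 (NFIA-Tg minus WT), on the log2(FPKM + 1) scale. FPKM is the number of fragments scaled to gene length and to the mapped fragments of the library. A positive difference means that the genotype effect in tissue was the more positive of the pair, and it can arise from a rise in iWAT, a fall at day 7 or both. Levels in iWAT and in culture were not compared with each other, because the gene lengths listed beside the deposited values differ between the tables. Whether the iWAT values were scaled by their listed lengths was not tested. For Nfia the length was 536933 bases in the iWAT table and 9643 in the culture table, and over all symbols the median ratio was 6.24. Replicates of a group correlated at r = 0.978 to 0.987 in iWAT and 0.996 to 0.997 at day 7, over the genes tested. Day 7 libraries held 16772594 to 26520682 reads, as recovered from the deposited values, and the depth in iWAT is unknown.

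The transgene showed in iWAT and not at day 7. Nfia had 166, 99.6 and 157 FPKM in NFIA-Tg iWAT and 3.73, 4.19 and 3.94 FPKM in WT iWAT, and the groups were far apart. At day 7, Nfia had 6.44, 7.32 and 7.203 FPKM in day 7 cultures labelled NFIA-Tg and 12.5, 13.04 and 12.01 FPKM in WT cultures, so the 3 cultures labelled NFIA-Tg were all below the 3 WT cultures. The genotype effect on Nfia was 4.81 ± 0.20 (SE) in iWAT and -0.76 ± 0.06 at day 7, a difference of 5.56 ± 0.21 (limma adjusted p = 8.62e-09). The day 7 libraries thus go against their label at this gene, and every direction given for them below rests on the label.

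The other 3 family members passed the test at day 7 and not in iWAT, and the difference was called for each. Nfix had 50.04, 39.9 and 25.1 FPKM in NFIA-Tg iWAT and 27.4, 35.1 and 35.5 FPKM in WT iWAT, with overlapping groups, and its effect of 0.18 in iWAT did not pass the test (limma adjusted p = 0.686). At day 7, Nfix had 9.22, 9.72 and 9.14 FPKM in day 7 cultures labelled NFIA-Tg and 30.9, 32.5 and 30.96 FPKM in WT cultures, which do not overlap. The difference was 1.83 ± 0.26 for Nfix (limma adjusted p = 0.000117) and 1.05 ± 0.18 for Nfic (adjusted p = 0.000482). Nfib differed the other way, by -0.79 ± 0.15 (limma adjusted p = 0.000964), since it was higher by 0.99 in day 7 cultures labelled NFIA-Tg and its iWAT effect was 0.20.

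Across the 13101 genes tested, limma called the difference between tissue and culture at 7120 genes (54.3%) at an adjusted p under 0.05, and 7776 had an unadjusted p under 0.05. The tissue effect was the higher one at 4690 genes (35.8%) and the lower one at 2430 (18.5%). Of the 7120 genes, 5854 were called at day 7 and not in iWAT. In iWAT, 557 genes (4.25%) were higher and 528 (4.03%) lower in NFIA-Tg, while at day 7, 3624 (27.7%) were higher and 6036 (46.1%) lower in cultures labelled NFIA-Tg. The absolute effect was the larger one at day 7 for 5708 (80.2%) of the 7120 genes. The effects also spread differently, with an SD over genes of 0.42 in iWAT and 0.79 at day 7, and a median SE of 0.13 in iWAT and 0.059 at day 7. A gene that passed in culture but not in tissue is therefore said to differ only where the difference itself was called. In 1477 genes the low-value filter was met in iWAT alone and in 929 at day 7 alone, and with a mean of at least 5 FPKM in both systems the difference was called at 4407 of 7460 genes (59.1%).

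The median difference over all genes was 0.18, and it depended on scaling. Median-of-ratios scaling within each system brought it to 0.03, with 3545 genes higher and 3133 lower, and quantile normalization brought it to 0.04, with 3626 higher and 3131 lower. Medians of gene groups below are therefore to be read beside 0.18, and their counts beside the shares of all genes given above.

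The effects in tissue and culture were only weakly related. Over the 13101 genes Pearson's r was 0.135 and Spearman's rho 0.148, and 6770 genes (51.7%) had the same sign. These are descriptions across genes, which are not independent replicates, and the effects share no library. Both systems passed the test at 835 genes, which are 77.0% of the iWAT calls and 8.64% of the day 7 calls. Of the 835, 534 (4.08% of genes tested) moved in the same direction and 301 (2.3%) in opposite directions, and the difference itself was called at all 301. Where both effects are called with opposite signs, a called difference is close to given, so that last count adds little. The opposite class held 189 genes up in iWAT and down at day 7, and 112 genes down in iWAT and up at day 7. The split rests on the day 7 labels: with those exchanged, every day 7 effect would change sign, and the 534 genes would be the opposite class and the 301 the same-direction class. These counts also turned on single iWAT libraries. Leaving out replicate 2 or 3 of NFIA-Tg iWAT gave 67 or 122 opposite genes and 115 or 195 genes moving the same way. Leaving out replicate 1, 2 or 3 of WT iWAT gave 144, 120 or 59 opposite genes and 269, 222 or 88 moving the same way. The iWAT calls themselves, 1085 in all, became 232 or 398 without replicate 2 or 3 of NFIA-Tg iWAT, and 538, 437 or 204 without replicate 1, 2 or 3 of WT iWAT.

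**Figure D1:**
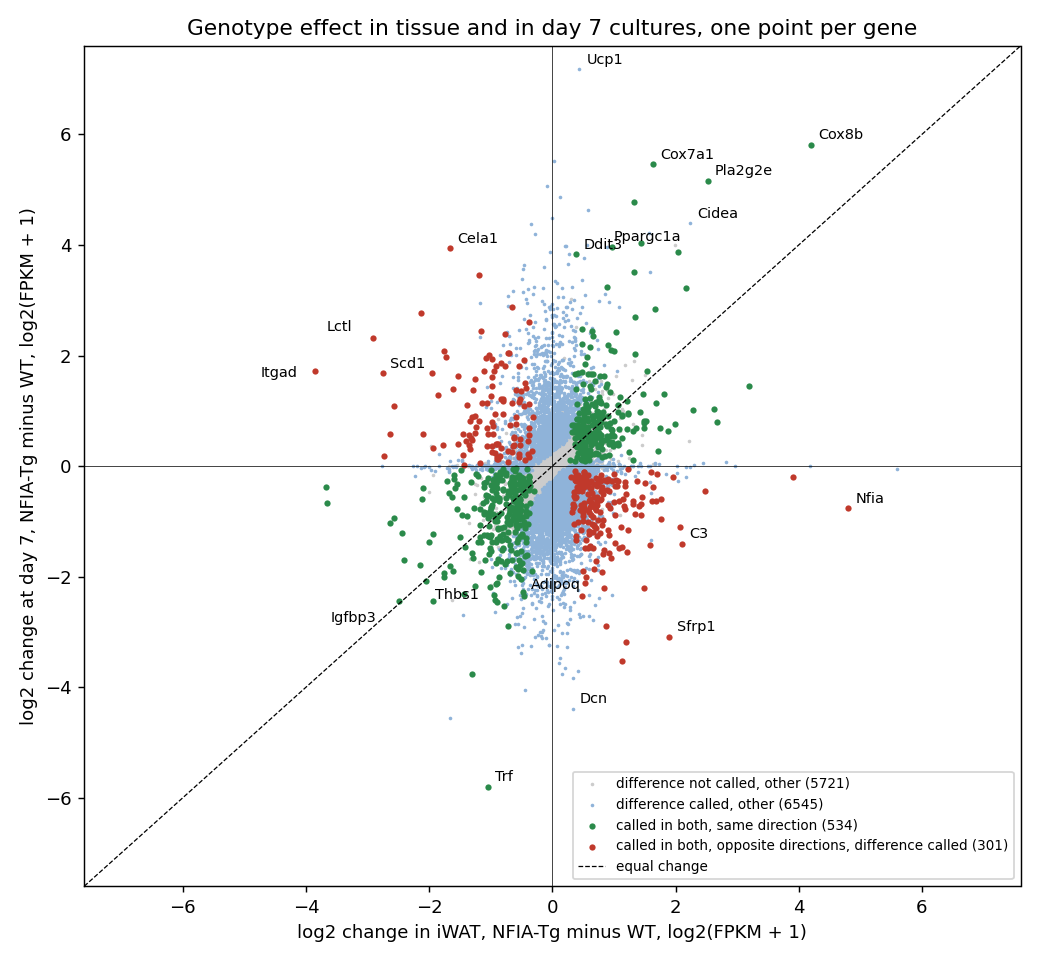
Each point is 1 of 13101 genes, with its genotype effect in iWAT on the x axis and at day 7 on the y axis, both as NFIA-Tg minus WT in log2(FPKM + 1). The dashed line marks equal effects, the cloud is taller than it is wide (SD 0.79 at day 7 and 0.42 in iWAT), and 301 genes called in both systems with opposite signs lie to the upper left and lower right of the origin.

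Genes called in both systems were ranked within each class of directions by the smaller of the 2 absolute effects, so that both effects had to be large. The 4 leading genes that rose in NFIA-Tg iWAT and fell in cultures labelled NFIA-Tg were Sfrp1, Gdf5, Cspg4 and C3. Sfrp1, a secreted antagonist of Wnt signalling, had 8.21, 7.23 and 11.05 FPKM in NFIA-Tg iWAT and 1.61, 1.09 and 2.21 FPKM in WT iWAT. At day 7, Sfrp1 had 6.43, 8.26 and 7.42 FPKM in day 7 cultures labelled NFIA-Tg and 59.5, 69.4 and 82.004 FPKM in WT cultures. The groups did not overlap in either system and the directions were opposite, giving a difference of 4.99 ± 0.25 (limma adjusted p = 4.16e-08). C3, the central protein of the complement cascade, had 437, 424 and 631 FPKM in NFIA-Tg iWAT and 98.5, 104 and 140.4 FPKM in WT iWAT. At day 7, C3 had 69.2, 80.01 and 77.8 FPKM in day 7 cultures labelled NFIA-Tg and 204, 206 and 196 FPKM in WT cultures. All 3 NFIA-Tg tissue libraries were above, and all 3 cultures labelled NFIA-Tg below, their WT libraries, with a difference of 3.51 ± 0.22 (limma adjusted p = 1.73e-07). Gdf5, a ligand of the bone morphogenetic protein family, differed by 3.70 ± 0.21 (limma adjusted p = 8.09e-08), and Cspg4, the NG2 proteoglycan of pericytes, by 3.01 ± 0.34 (adjusted p = 1.79e-05). Cspg4 was at 0.0562, 0.0706 and 0.0296 FPKM in day 7 cultures labelled NFIA-Tg and 1.91, 2.06 and 1.55 FPKM in WT cultures, so its level in culture was low in both genotypes.

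The converse class, down in NFIA-Tg iWAT and up in cultures labelled NFIA-Tg, was led on the same ranking by Lctl, Lamb3, Tmem45b and Itgad. Lctl, a klotho family protein, had 3.43, 7.73 and 5.61 FPKM in NFIA-Tg iWAT and 35.4, 51.9 and 54.8 FPKM in WT iWAT. At day 7, Lctl had 33.5, 32.3 and 31.5 FPKM in day 7 cultures labelled NFIA-Tg and 5.796, 6.11 and 5.36 FPKM in WT cultures. The groups were apart in both systems, with a difference of -5.21 ± 0.30 (limma adjusted p = 8.68e-08). Tmem45b had 127, 192 and 188 FPKM in NFIA-Tg iWAT and 569.9, 557 and 534 FPKM in WT iWAT. At day 7, Tmem45b had 108, 96.5 and 91.3 FPKM in day 7 cultures labelled NFIA-Tg and 24.9, 27.5 and 21.1 FPKM in WT cultures, for a difference of -3.71 ± 0.20 (limma adjusted p = 7.64e-08). Scd1, the desaturase that makes oleate from stearate, belonged to the same class. Its tissue values were 812, 883 and 468 FPKM in NFIA-Tg iWAT and 5559, 4969.6 and 3676 FPKM in WT iWAT, and at day 7 it had 9521, 12692 and 12235 FPKM in day 7 cultures labelled NFIA-Tg and 4145, 3793 and 2877 FPKM in WT cultures, for a difference of -4.42 ± 0.35 (limma adjusted p = 1.12e-06).

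Itgad and Lamb3 were also in this class, but each shares its locus with another gene. Itgad, the alpha D chain of a leukocyte integrin, had 0.124, 0.3201 and 0.203 FPKM in NFIA-Tg iWAT and 14.02, 13.2 and 24.6 FPKM in WT iWAT. At day 7, Itgad had 6.097, 7.12 and 6.32 FPKM in day 7 cultures labelled NFIA-Tg and 1.26, 1.39 and 1.203 FPKM in WT cultures. The difference was -5.57 ± 0.26 (limma adjusted p = 1.88e-08). Itgad overlaps Cox6a2 on the opposite strand, and Cox6a2, the muscle form of a cytochrome c oxidase subunit, differed by -4.11 ± 0.39, with an effect of -1.17 in iWAT that did not pass (adjusted p = 0.104) and 2.94 at day 7. Lamb3, the beta 3 chain of laminin, differed by -3.84 ± 0.18 (limma adjusted p = 1.92e-08) and overlaps Hsd11b1 on the opposite strand, which differed by -2.51 ± 0.20. Lamb3 also overlaps G0s2 on the opposite strand, whose difference of 0.46 ± 0.26 did not pass (limma adjusted p = 0.1485). The library kit keeps strand, but the strand setting of the counting is not stated, so these values are uncertain. The same holds for Lctl, which overlaps Zwilch on the opposite strand. Zwilch fell in both systems, by -0.75 in iWAT and -0.68 at day 7, and its difference of -0.07 ± 0.17 did not pass (limma adjusted p = 0.74). Nfia, Nfix, Gdf5, Ccl2, Ddit3, Cd52 and Acta1 also overlap genes on the opposite strand. Trf and Foxm1 overlap genes on their own strand. Of 60 genes named by rule, 16 overlap another protein-coding gene.

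Promoter sequence was available for 4 of these 8 leading opposite genes, and 3 are shown because they cover both directions and both outcomes of a search for NFI single sites. The windows run from 250 bases before to 50 bases after the RefSeq start (build GRCm38.p6), 5′ to 3′ on the gene's strand, and capitals mark TTGGC or its reverse complement GCCAA. C3 (chr17:57228087-57228386, minus strand) and Cspg4 (chr9:56864854-56865153, plus strand) rose in iWAT and fell at day 7, and Lctl (chr9:64116897-64117196, plus strand) moved the other way.
C3: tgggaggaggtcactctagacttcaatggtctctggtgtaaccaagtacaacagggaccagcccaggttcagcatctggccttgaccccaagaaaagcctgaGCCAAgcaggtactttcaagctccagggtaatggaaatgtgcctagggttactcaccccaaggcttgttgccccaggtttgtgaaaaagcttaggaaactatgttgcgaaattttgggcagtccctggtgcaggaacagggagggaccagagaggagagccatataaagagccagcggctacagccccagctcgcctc
Cspg4: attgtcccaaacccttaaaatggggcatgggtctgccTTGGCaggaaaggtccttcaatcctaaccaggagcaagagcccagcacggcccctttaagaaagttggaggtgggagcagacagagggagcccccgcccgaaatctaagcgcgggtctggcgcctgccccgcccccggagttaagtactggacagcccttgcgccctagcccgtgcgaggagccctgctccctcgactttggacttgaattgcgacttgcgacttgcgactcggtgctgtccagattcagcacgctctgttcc
Lctl: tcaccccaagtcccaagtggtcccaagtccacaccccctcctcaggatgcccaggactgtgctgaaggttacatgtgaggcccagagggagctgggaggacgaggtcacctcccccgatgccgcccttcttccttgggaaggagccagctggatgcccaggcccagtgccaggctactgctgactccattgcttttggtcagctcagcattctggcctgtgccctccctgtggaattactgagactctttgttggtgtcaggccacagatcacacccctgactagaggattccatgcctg
The single site occurred once in the C3 window, at base 103, once in the Cspg4 window, at base 38, and was not found in the Lctl window. The Lamb3 windows, for 2 starts, held 1 and 2. Of 32841 promoter windows of this length 46.7% held at least 1 single site. Among the 4 genes 3 held one, but this counts genes and the 46.7% counts windows, of which Lamb3 has 2. The full palindrome, TTGGC and GCCAA with 5 bases between them, was found in 12 windows (0.0365%), none of them of these 4 genes.

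Genes that rose in both systems included parts of the mitochondrial and brown fat programme. Cox8b, the cytochrome c oxidase subunit typical of brown fat and muscle, had 699.9, 633 and 941 FPKM in NFIA-Tg iWAT and 19.9, 67.1 and 46.2 FPKM in WT iWAT. At day 7, Cox8b had 186, 173 and 175 FPKM in day 7 cultures labelled NFIA-Tg and 3.51, 3.09 and 0.751 FPKM in WT cultures. It rose in both systems without overlap of the groups, by 4.20 in iWAT and 5.81 at day 7. The difference of -1.61 ± 0.57 passed (limma adjusted p = 0.0303) but was lost under 10 of 28 alternatives. Pla2g2e, a secreted phospholipase A2, had 52.3, 45.7 and 101 FPKM in NFIA-Tg iWAT and 7.98, 11.2 and 11.2 FPKM in WT iWAT. At day 7, Pla2g2e had 66.5, 65.7 and 59.8 FPKM in day 7 cultures labelled NFIA-Tg and 0.889, 0.713 and 0.854 FPKM in WT cultures, a larger rise than in tissue (difference -2.64 ± 0.32, limma adjusted p = 3.16e-05). Gsta3, a glutathione S-transferase, rose by 2.04 in iWAT and 3.87 at day 7, a difference of -1.83 ± 0.32 (limma adjusted p = 0.000478). Chchd10, a protein of the mitochondrial intermembrane space that overlaps Mmp11 and Gm867 on the opposite strand, rose by 2.17 in iWAT and 3.22 at day 7. Its difference of -1.05 ± 0.37 (limma adjusted p = 0.0314) was lost under 9 of 28 alternatives.

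None of the 4 leading genes that fell in both systems passed the test of the difference. Igfbp3, which binds insulin-like growth factors, had 13.7, 12.9 and 17.5 FPKM in NFIA-Tg iWAT and 116, 69.7 and 80.4 FPKM in WT iWAT. At day 7, Igfbp3 had 8.11, 11.5 and 8.23 FPKM in day 7 cultures labelled NFIA-Tg and 54.7, 51.3 and 56.3 FPKM in WT cultures. The effects were -2.49 in iWAT and -2.44 at day 7, and the difference of -0.06 ± 0.25 had a 95% interval of -0.61 to 0.49 (limma adjusted p = 0.864). Thbs1, the matrix glycoprotein thrombospondin 1, had effects of -2.05 in iWAT and -2.09 at day 7, with an interval for the difference of -0.75 to 0.82 (limma adjusted p = 0.946). Ccl2, the chemokine that draws monocytes, had 1.36, 2.93 and 1.03 FPKM in NFIA-Tg iWAT and 11.1, 7.85 and 8.93 FPKM in WT iWAT. At day 7, Ccl2 had 7.11, 6.87 and 4.44 FPKM in day 7 cultures labelled NFIA-Tg and 29.3, 35.8 and 48.9 FPKM in WT cultures. Its difference was 0.50 ± 0.36, with an interval of -0.28 to 1.28 (limma adjusted p = 0.259). Fam83d, a protein of the mitotic spindle, had effects of -2.15 in iWAT and -1.79 at day 7, and the interval of its difference was -1.17 to 0.45 (limma adjusted p = 0.44). Without replicate 1 of NFIA-Tg iWAT the difference for Fam83d passed (adjusted p = 0.00646). These intervals are wide, so the test does not show that the falls were equal.

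**Figure D2:**
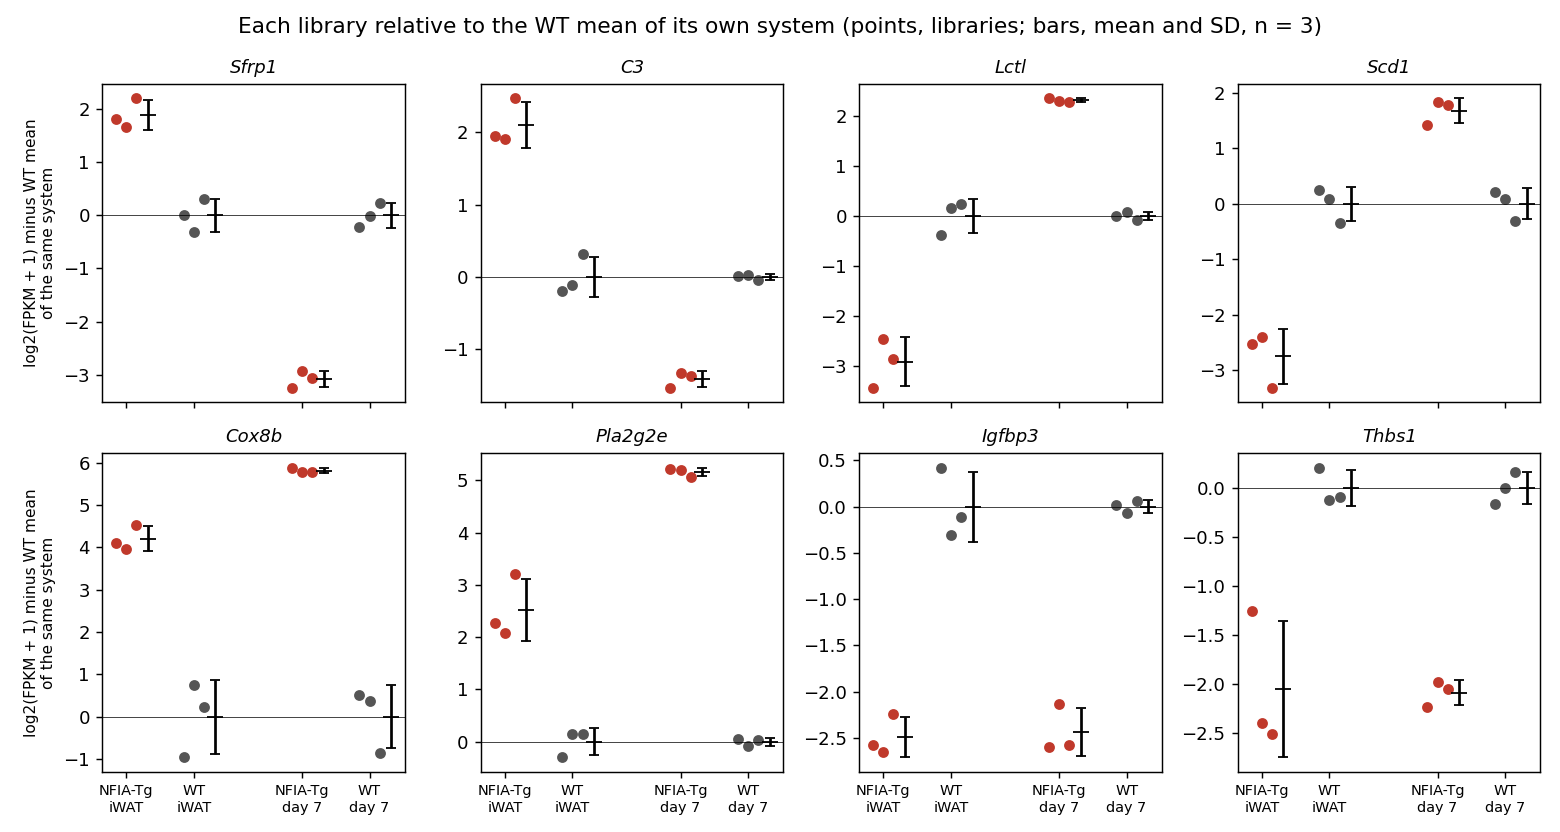
Each point is 1 library, plotted as log2(FPKM + 1) minus the WT mean of its own system, with NFIA-Tg in red left of WT in grey, and bars giving the mean and SD of 3 libraries. In the upper row Sfrp1, C3, Lctl and Scd1 lie on opposite sides of the WT mean in iWAT and at day 7, and in the lower row Cox8b and Pla2g2e lie above it and Igfbp3 and Thbs1 below it in both.

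Among genes expressed in both systems, where the higher genotype of each averaged 5 FPKM or more, the most positive differences after those of Nfia and Sfrp1 belonged to Trf and Dcn. Trf, the iron carrier transferrin, had 763, 711 and 756 FPKM in NFIA-Tg iWAT and 1467, 1324 and 1877 FPKM in WT iWAT. At day 7, Trf had 2.55, 2.21 and 3.196 FPKM in day 7 cultures labelled NFIA-Tg and 195, 204 and 205 FPKM in WT cultures. It fell in both systems, with effects of -1.05 in iWAT and -5.80 at day 7, so the positive difference of 4.75 ± 0.17 (limma adjusted p = 6.45e-09) is that between a smaller fall in tissue and a larger one in culture. Dcn, the collagen-binding proteoglycan decorin, had 552, 576 and 426 FPKM in NFIA-Tg iWAT and 368, 419 and 444 FPKM in WT iWAT, which did not pass the test (limma adjusted p = 0.214). At day 7, Dcn had 1.24, 1.15 and 1.02 FPKM in day 7 cultures labelled NFIA-Tg and 44.1, 44.9 and 41.97 FPKM in WT cultures, for a difference of 4.71 ± 0.15 (limma adjusted p = 2.19e-09).

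The most negative differences among the same genes were those of Cela1, Itgad, Lctl and Coro6. Cela1, an elastase, had 11.2, 15.7 and 19.3 FPKM in NFIA-Tg iWAT and 59.1, 41.02 and 49.97 FPKM in WT iWAT. At day 7, Cela1 had 122, 112 and 116 FPKM in day 7 cultures labelled NFIA-Tg and 6.77, 6.796 and 6.41 FPKM in WT cultures. It fell in tissue and rose in culture, with a difference of -5.60 ± 0.23 (limma adjusted p = 1.21e-08). Coro6, a coronin that binds actin, did not pass in iWAT (-0.35, limma adjusted p = 0.202). At day 7, Coro6 had 165, 136 and 143 FPKM in day 7 cultures labelled NFIA-Tg and 7.78, 6.17 and 4.88 FPKM in WT cultures, for a difference of -4.72 ± 0.22 (limma adjusted p = 2.24e-08).

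Brown fat genes were mostly called lower on the difference. Of 23 thermogenic genes tested, 15 (65.2%) were called lower and 4 (17.4%) higher, with a median of -1.15. The median effect was 0.53 in iWAT and 0.99 at day 7, and 6 rose and 1 fell in iWAT against 20 that rose and 2 that fell at day 7. Ucp1 had 1.25, 4.08 and 1.33 FPKM in NFIA-Tg iWAT and 1.11, 1.87 and 0.767 FPKM in WT iWAT, which overlap (effect 0.44, limma adjusted p = 0.467). At day 7, Ucp1 had 208, 248 and 268 FPKM in day 7 cultures labelled NFIA-Tg and 0.872, 0.738 and 0.414 FPKM in WT cultures. The difference of -6.74 ± 0.39 (limma adjusted p = 1.04e-07) was the most negative of all genes tested.

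Regulators and a lipid droplet gene of the programme were among the 15. Ppargc1a, the coactivator PGC-1α that drives mitochondrial biogenesis, had 2.89, 1.97 and 1.16 FPKM in NFIA-Tg iWAT and 0.556, 0.756 and 0.458 FPKM in WT iWAT. At day 7, Ppargc1a had 21.02, 24.8 and 27.5 FPKM in day 7 cultures labelled NFIA-Tg and 0.501, 0.687 and 0.655 FPKM in WT cultures. The iWAT groups do not overlap, but the effect of 0.88 did not pass (limma adjusted p = 0.0629), and the difference was -3.09 ± 0.25 (adjusted p = 1.38e-06). Cidea, a lipid droplet protein of brown fat, had 49.8, 60.5 and 53.96 FPKM in NFIA-Tg iWAT and 4.298, 25.7 and 10.6 FPKM in WT iWAT. At day 7, Cidea had 23.3, 23.3 and 23.9 FPKM in day 7 cultures labelled NFIA-Tg and 0.308, 0.1203 and 0.0781 FPKM in WT cultures. Its effect was 2.24 in iWAT (limma adjusted p = 0.0617) and 4.39 at day 7, with a difference of -2.16 ± 0.57 (adjusted p = 0.00669). Ppara, the nuclear receptor for fatty acids, differed by -2.26 ± 0.25, and Fgf21, a hormone secreted under cold and nutrient stress, by -2.45 ± 0.24. Adrb3, the β3-adrenergic receptor, went the other way. It had 31.97, 58.5 and 37.1 FPKM in NFIA-Tg iWAT and 55.9, 58.7 and 37.4 FPKM in WT iWAT, and at day 7 it had 0.688, 0.773 and 0.768 FPKM in day 7 cultures labelled NFIA-Tg and 9.07, 10.2 and 8.61 FPKM in WT cultures, for a difference of 2.29 ± 0.28 (limma adjusted p = 3.54e-05). Kcnk3, a potassium channel, fell in iWAT (effect -1.31) and rose by 0.48 at day 7. Ebf2, a factor that marks brown fat precursors, rose by 1.13 in iWAT and 0.91 at day 7, and its difference of 0.22 ± 0.12 did not pass (limma adjusted p = 0.136).

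Respiratory chain genes that passed in tissue all rose, and most of those that passed in culture did. Of 78 oxidative phosphorylation genes, 27 rose and none fell in iWAT, 56 rose and 4 fell at day 7, and 21 rose in both. The median effect was 0.35 in iWAT and 0.42 at day 7, beside 0.05 and -0.11 over all genes. On the difference 12 (15.4%) were higher, 19 (24.4%) lower and 47 not called, with a median of -0.05 that became 0.03 after scaling to TPM and -0.23 after median-of-ratios scaling. Sdhb, the iron-sulfur subunit of complex II, had 168, 199 and 202 FPKM in NFIA-Tg iWAT and 110.4, 119 and 101 FPKM in WT iWAT. At day 7, Sdhb had 346, 341 and 328 FPKM in day 7 cultures labelled NFIA-Tg and 204, 193 and 189 FPKM in WT cultures. The rises were 0.78 and 0.79, and the difference had a 95% interval of -0.27 to 0.26. Cox7a1, the heart and muscle form of a cytochrome c oxidase subunit, had 34.98, 40.02 and 56.1 FPKM in NFIA-Tg iWAT and 14.2, 11.998 and 13.1 FPKM in WT iWAT. At day 7, Cox7a1 had 433, 428 and 428 FPKM in day 7 cultures labelled NFIA-Tg and 15.1, 8.801 and 4.96 FPKM in WT cultures, for a difference of -3.82 ± 0.39 (limma adjusted p = 7.04e-06). Ndufa6, a subunit of complex I, rose by 0.36 in iWAT and 1.67 at day 7, a difference of -1.30 ± 0.11 (limma adjusted p = 1.53e-06). Atp5g3, which encodes subunit c of ATP synthase, rose by 0.46 in iWAT and was changed by -0.23 at day 7.

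Genes of the tricarboxylic acid cycle and of fatty acid oxidation that passed in tissue all rose, while culture held calls in both directions. Of 19 cycle genes, 13 rose and none fell in iWAT, and 14 rose and 3 fell at day 7. On the difference 7 (36.8%) were higher and 2 (10.5%) lower, beside 35.8% and 18.5% of all genes. The median difference of 0.15 became -0.03 after median-of-ratios scaling. Pdha1, a subunit of pyruvate dehydrogenase, had 143, 163 and 165 FPKM in NFIA-Tg iWAT and 76.8, 91.4 and 81.5 FPKM in WT iWAT. At day 7, Pdha1 had 298, 289 and 306 FPKM in day 7 cultures labelled NFIA-Tg and 301, 289 and 299.7 FPKM in WT cultures, which overlap, and the difference was 0.90 ± 0.11 (limma adjusted p = 3.79e-05). Pdha1 overlaps Map3k15 on the opposite strand. Of 21 fatty acid oxidation genes, 10 rose and none fell in iWAT, 11 rose and 5 fell at day 7, and on the difference 9 (42.9%) were higher and 4 (19%) lower, with a median of 0.22. Cpt1a, the enzyme that admits long-chain fatty acids to mitochondria, had 67.9, 60.2 and 73.1 FPKM in NFIA-Tg iWAT and 47.9, 50.6 and 54.3 FPKM in WT iWAT. At day 7, Cpt1a had 5.997, 6.34 and 5.86 FPKM in day 7 cultures labelled NFIA-Tg and 23.6, 26.8 and 26.5 FPKM in WT cultures, for a difference of 2.30 ± 0.12 (limma adjusted p = 4.62e-08). Acadl, the long-chain acyl-CoA dehydrogenase, rose by 0.88 in iWAT and was changed by -0.43 at day 7, a difference of 1.31 ± 0.16 (limma adjusted p = 2.70e-05). Acot2, a mitochondrial acyl-CoA thioesterase, rose more at day 7 (difference -1.40 ± 0.14, limma adjusted p = 6.46e-06).

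Mitochondrial ribosome genes were called in both directions. Of 76, 4 rose and none fell in iWAT, 38 rose and 14 fell at day 7, and on the difference 15 (19.7%) were higher and 16 (21.1%) lower, beside 35.8% and 18.5% of all genes. The median difference was 0.01, and -0.17 after median-of-ratios scaling. Mrpl49 differed by 1.05 ± 0.11 (limma adjusted p = 1.13e-05) and overlaps Syvn1 on the opposite strand, and Mrps10 differed by -0.73 ± 0.08 (adjusted p = 1.82e-05).

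**Figure D3:**
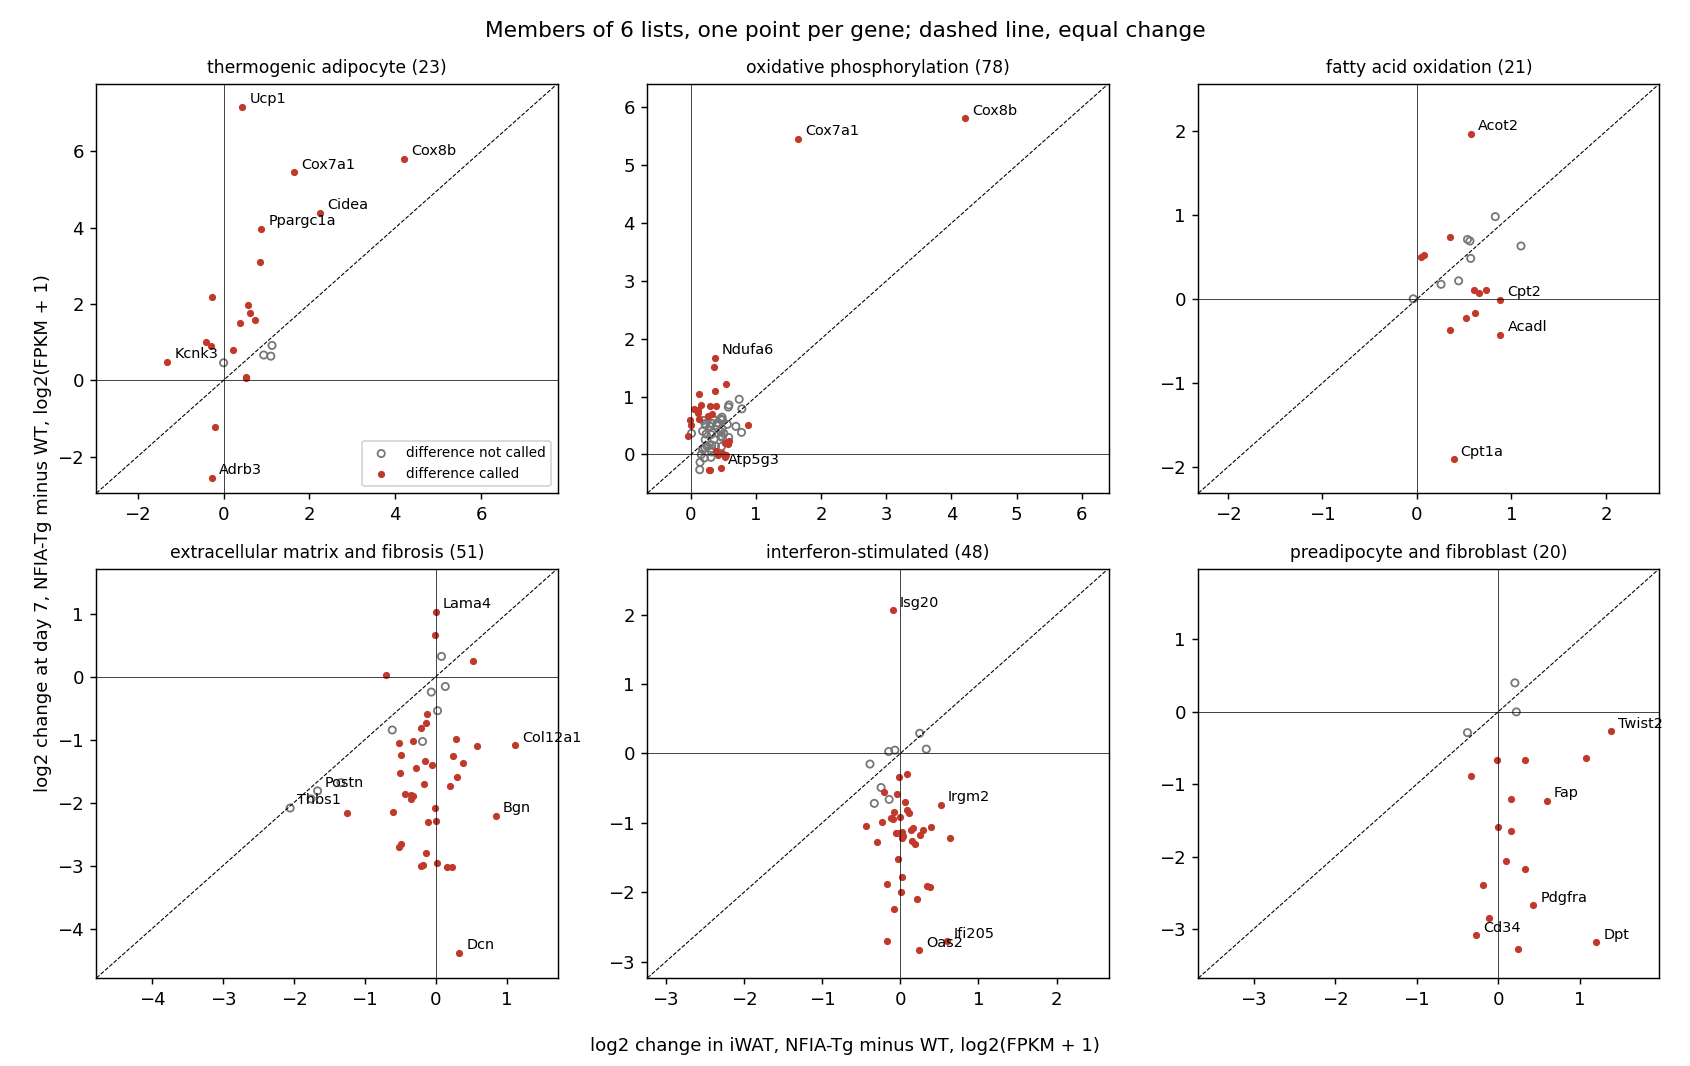
Members of 6 gene lists, each point 1 gene, with the genotype effect in iWAT on the x axis and at day 7 on the y axis (NFIA-Tg minus WT, log2(FPKM + 1)), filled where the difference was called. Oxidative phosphorylation genes cluster around the dashed line of equal effects (median 0.35 in iWAT and 0.42 at day 7), and most matrix, interferon-stimulated and fibroblast genes lie below it.

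Of 28 genes of the mature adipocyte, none rose and 1 fell in iWAT, while at day 7, 5 (17.9%) rose and 14 (50%) fell, beside 27.7% and 46.1% of all genes. On the difference 12 (42.9%) were higher and 3 (10.7%) lower, beside 35.8% and 18.5% of all genes, with a median of 0.39. Adipoq, which encodes the hormone adiponectin, had 2048, 2022 and 2274 FPKM in NFIA-Tg iWAT and 2919, 2859.9 and 2929 FPKM in WT iWAT. The iWAT groups do not overlap, yet the effect of -0.46 ± 0.17 did not pass (limma adjusted p = 0.139). At day 7, Adipoq had 259, 276 and 240.4 FPKM in day 7 cultures labelled NFIA-Tg and 1284, 1275 and 1325 FPKM in WT cultures, for a difference of 1.86 ± 0.13 (limma adjusted p = 3.22e-07). Car3, a carbonic anhydrase abundant in fat, differed by 2.75 ± 0.24 (limma adjusted p = 2.09e-06). Pparg, the master regulator of fat cell differentiation, had 80.95, 163 and 123 FPKM in NFIA-Tg iWAT and 85.1, 129 and 127 FPKM in WT iWAT. At day 7, Pparg had 71.5, 73.8 and 72.02 FPKM in day 7 cultures labelled NFIA-Tg and 72.3, 69.3 and 70.4 FPKM in WT cultures. Its groups overlap in iWAT, neither effect passed, and the difference of 0.04 ± 0.29 had an interval of -0.60 to 0.68 (limma adjusted p = 0.918). The summed level of the 28 genes overlapped between genotypes in both systems, at 48110 to 57624 FPKM in NFIA-Tg iWAT and 50469 to 57183 in WT iWAT, and at 31716 to 35559 FPKM in cultures labelled NFIA-Tg and 33224 to 37321 in WT cultures, so both systems held adipocytes by these markers.

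Of 26 genes of fatty acid and triglyceride synthesis, 10 (38.5%) were higher and 4 (15.4%) lower on the difference, with a median of 0.27. These shares are near the 35.8% and 18.5% of all genes. Acly, which supplies acetyl-CoA for fatty acid synthesis, had 44.3, 55.96 and 50.9 FPKM in NFIA-Tg iWAT and 35.9, 45.3 and 50.8 FPKM in WT iWAT. At day 7, Acly had 84.3, 90.6 and 93.3 FPKM in day 7 cultures labelled NFIA-Tg and 442, 418 and 372 FPKM in WT cultures, for a difference of 2.38 ± 0.17 (limma adjusted p = 5.23e-07). Fasn, fatty acid synthase, differed by 2.46 ± 0.26 and Acsl1, which activates fatty acids, by 3.19 ± 0.29. The desaturases Scd1 and Scd2 were among the 4 called lower, Scd1 as above and Scd2 with a difference of -2.16 ± 0.21 (limma adjusted p = 5.79e-06).

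Of 31 genes of glucose uptake and insulin signalling, 8 (25.8%) were higher and 12 (38.7%) lower on the difference, with a median of -0.28. Pfkp, a phosphofructokinase, had 29.8, 29.8 and 36.96 FPKM in NFIA-Tg iWAT and 21.9, 21.4 and 24.7 FPKM in WT iWAT. At day 7, Pfkp had 119.6, 133 and 136 FPKM in day 7 cultures labelled NFIA-Tg and 19.5, 16.9 and 14.4 FPKM in WT cultures, for a difference of -2.39 ± 0.16 (limma adjusted p = 2.97e-07). Pfkp overlaps Pitrm1 on the opposite strand. The muscle phosphofructokinase Pfkm, the phosphoglycerate kinase Pgk1 and the glucose transporter Slc2a1 differed in the same direction, by -1.17 ± 0.13, -1.06 ± 0.25 and -1.42 ± 0.19. Akt1, a kinase of the insulin pathway, went the other way (0.93 ± 0.09, limma adjusted p = 4.04e-06), as did the insulin receptor substrate Irs1 (2.20 ± 0.21) and the phosphoinositide kinase subunit Pik3r1 (2.34 ± 0.35).

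Of 29 cytokine and chemokine genes, 2 rose and 4 fell in iWAT, and 4 rose and 18 (62.1%) fell at day 7, beside 46.1% of all genes. All 4 that fell in iWAT also fell at day 7, among them Ccl2 and Ccl7. On the difference 13 (44.8%) were higher and 5 (17.2%) lower, beside 35.8% and 18.5% of all genes, with a median of 0.56. Of the 29, 8 passed the low-value filter through iWAT alone and 3 through culture alone. With at least 1 FPKM required in each system, 9 of the 18 left were higher and 3 lower. Cxcl12, a chemokine that retains progenitor and immune cells, had 91.1, 84.3 and 61.5 FPKM in NFIA-Tg iWAT and 77.3, 84.7 and 81.3 FPKM in WT iWAT. At day 7, Cxcl12 had 5.49, 6.002 and 5.94 FPKM in day 7 cultures labelled NFIA-Tg and 58.6, 62.5 and 68.8 FPKM in WT cultures, for a difference of 3.18 ± 0.17 (limma adjusted p = 6.64e-08). Csf1, the growth factor of macrophages, had 34.5, 37.4 and 35.6 FPKM in NFIA-Tg iWAT and 18.4, 14.03 and 19.97 FPKM in WT iWAT. At day 7, Csf1 had 22.5, 26.3 and 22.8 FPKM in day 7 cultures labelled NFIA-Tg and 59.5, 63.4 and 68.7 FPKM in WT cultures. Csf1 thus rose in tissue and fell in culture, with a difference of 2.39 ± 0.16 (limma adjusted p = 2.81e-07). Of 34 genes of NF-kB and TNF signalling none passed in iWAT, and on the difference 12 (35.3%) were higher and 5 (14.7%) lower, near the 35.8% and 18.5% of all genes. The median of 0.11 became -0.05 after median-of-ratios scaling and -0.11 after quantile normalization. Il1r1, the receptor for interleukin-1, differed by 2.35 ± 0.14 (limma adjusted p = 1.02e-07), and Tnfaip3, an inhibitor of NF-kB, by 1.17 ± 0.18 (adjusted p = 0.000164).

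Macrophage markers gave the following values beside these results. The summed level of 25 markers was 1544 to 1836 FPKM in NFIA-Tg iWAT and 1920 to 2382 in WT iWAT, and 19.7 to 21.1 FPKM in cultures labelled NFIA-Tg and 15.4 to 16.5 in WT cultures. At day 7, 12 of the 25 were at 0 in every culture labelled NFIA-Tg and 10 in every WT culture. In iWAT 5 markers fell and none rose, and the part of macrophages in the inflammatory genes was not tested.

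Interferon-stimulated genes mostly fell in cultures labelled NFIA-Tg. Of 48, 42 (87.5%) fell and 1 rose at day 7, while in iWAT 1 rose and none fell, and on the difference 39 were higher and 1 lower. The median effect was 0.01 in iWAT and -1.07 at day 7. Oas2, a sensor of viral double-stranded RNA, had 6.67, 8.45 and 10.8 FPKM in NFIA-Tg iWAT and 5.21, 7.63 and 8.67 FPKM in WT iWAT. At day 7, Oas2 had 6.06, 9.31 and 5.48 FPKM in day 7 cultures labelled NFIA-Tg and 51.98, 55.04 and 56.6 FPKM in WT cultures, for a difference of 3.08 ± 0.29 (limma adjusted p = 3.70e-06). Oas1g differed by 2.15 ± 0.19 (limma adjusted p = 2.59e-06), but its reads can be shared with near-identical Oas1 genes. Irgm2, an interferon-induced GTPase, was the 1 member that rose in iWAT, by 0.52, and it was changed by -0.74 at day 7. Isg20, an exonuclease, was the 1 member lower on the difference (-2.16 ± 0.30, limma adjusted p = 8.78e-05).

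**Figure D4:**
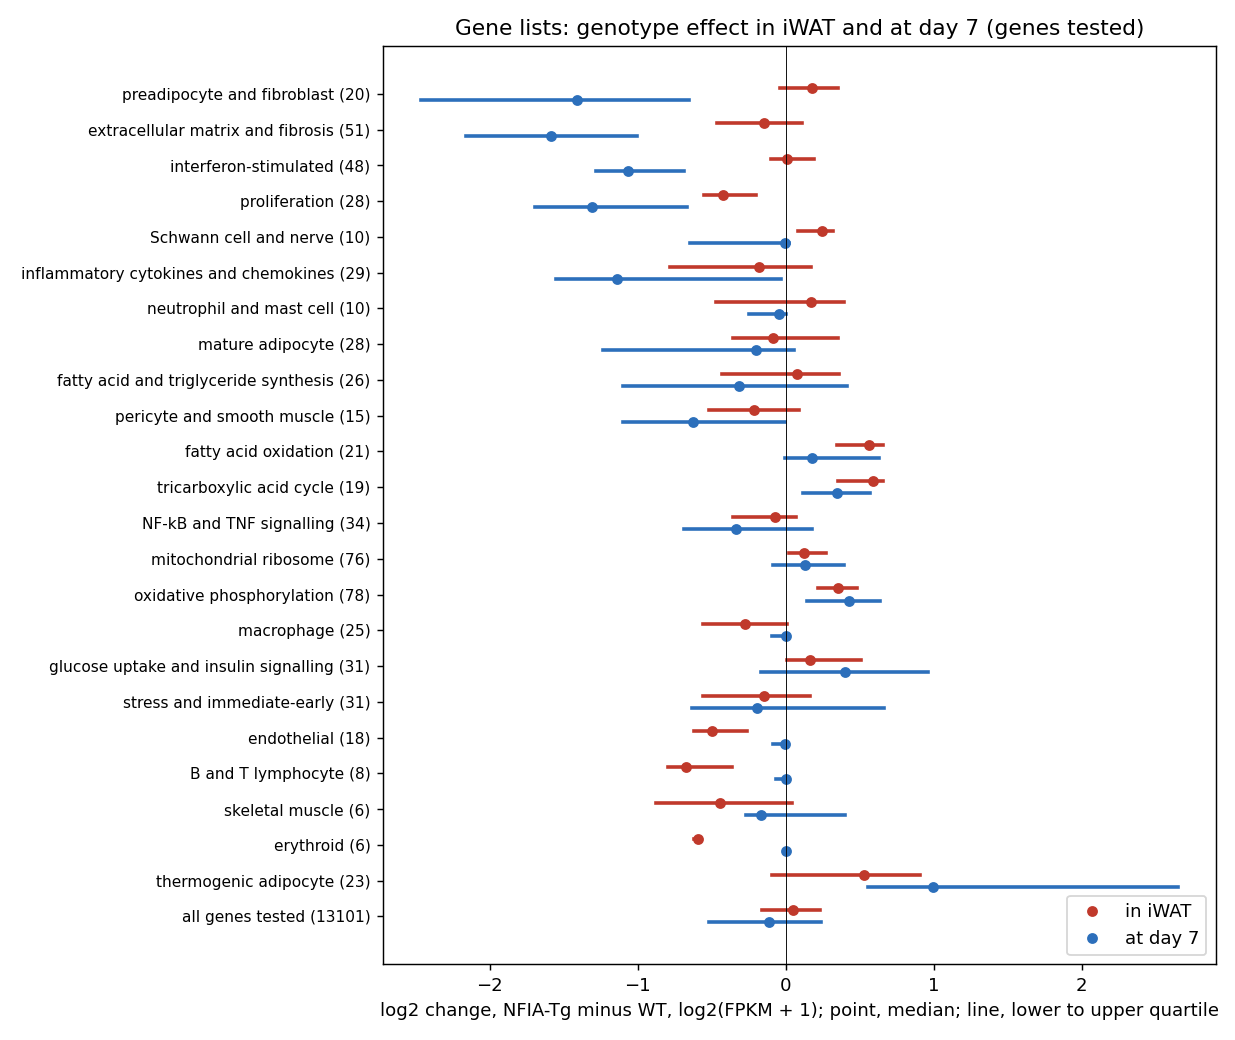
For each gene list the point is the median, and the line the range from the lower to the upper quartile, of its members' genotype effects (NFIA-Tg minus WT, log2(FPKM + 1)), in iWAT (red, upper) and at day 7 (blue, lower), with the number of genes tested in brackets. Interferon-stimulated, matrix and fibroblast lists lie well below 0 at day 7 (medians -1.07, -1.59 and -1.41) and near 0 in iWAT (0.01, -0.14 and 0.18), and the thermogenic list lies above 0 in both.

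Extracellular matrix genes also mostly fell at day 7. Of 51, 45 (88.2%) fell and 4 rose at day 7, 7 fell and 3 rose in iWAT, and on the difference 38 were higher and 3 lower, with a median of 1.35. Col6a2, a chain of type VI collagen, had 182, 181 and 196 FPKM in NFIA-Tg iWAT and 187, 182 and 192 FPKM in WT iWAT, which overlap. At day 7, Col6a2 had 63.01, 75.2 and 63.6 FPKM in day 7 cultures labelled NFIA-Tg and 274, 292 and 295 FPKM in WT cultures, for a difference of 2.08 ± 0.11 (limma adjusted p = 5.40e-08). Bgn, the proteoglycan biglycan, and Col12a1, a collagen that sits on fibril surfaces, had opposite directions. Bgn had 558, 439 and 666 FPKM in NFIA-Tg iWAT and 305, 324 and 283 FPKM in WT iWAT, and at day 7 it had 161, 189 and 164 FPKM in day 7 cultures labelled NFIA-Tg and 742, 795 and 842 FPKM in WT cultures. The 7 matrix genes that fell in iWAT all fell at day 7 too. Among them Thbs1, Postn and Col16a1 were not called on the difference, and Postn, the matricellular protein periostin, had effects of -1.67 in iWAT and -1.81 at day 7 (interval of the difference -0.23 to 0.52).

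Markers of preadipocytes and fibroblasts were mostly called higher on the difference. Of 20 tested, 17 (85%) were higher and none lower on the difference, with a median of 1.76, and 4 rose in iWAT and fell at day 7. Dpt, the matrix protein dermatopontin, was one of the 4. It had 1750, 1535 and 2292 FPKM in NFIA-Tg iWAT and 574, 997 and 884 FPKM in WT iWAT, and at day 7 it had 3.41, 3.34 and 2.58 FPKM in day 7 cultures labelled NFIA-Tg and 33.5, 37.1 and 38.1 FPKM in WT cultures, for a difference of 4.38 ± 0.27 (limma adjusted p = 1.61e-07). Fap, the fibroblast activation protein, had 10.5, 10.3 and 9.96 FPKM in NFIA-Tg iWAT and 6.43, 6.34 and 6.65 FPKM in WT iWAT, and at day 7 it had 0.335, 0.421 and 0.331 FPKM in day 7 cultures labelled NFIA-Tg and 2.21, 2.24 and 2.13 FPKM in WT cultures (difference 1.82 ± 0.10, limma adjusted p = 9.84e-08). Pdgfra, the receptor that marks adipocyte progenitors, differed by 3.10 ± 0.20. The summed level of the 20 markers was 9658 to 10859 FPKM in NFIA-Tg iWAT and 7075 to 8383 in WT iWAT, and 373 to 470.2 FPKM in cultures labelled NFIA-Tg and 1506 to 1647 in WT cultures. These sums do not overlap in either system, and their part in the matrix genes was not tested.

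Proliferation genes fell at day 7 in 27 of 28 cases, and 5 fell and none rose in iWAT. On the difference 20 were higher and none lower, with a median of 0.76, and the median effect was -0.42 in iWAT and -1.31 at day 7. Of the 28, 5 passed the low-value filter through culture alone. With 0.1 instead of 1 added to the FPKM before the log, 13 were higher and none lower. The median effect in iWAT was then -0.68 and the median difference 0.55, so the count depends on low tissue values. Foxm1, a transcription factor of dividing cells, had 1.07, 1.32 and 0.77004 FPKM in NFIA-Tg iWAT and 1.17, 1.55 and 1.57 FPKM in WT iWAT, near the low-value filter of 1 FPKM. At day 7, Foxm1 had 4.61, 4.498 and 3.87 FPKM in day 7 cultures labelled NFIA-Tg and 24.4, 24.4 and 23.9 FPKM in WT cultures, for a difference of 1.999 ± 0.16 (limma adjusted p = 9.90e-07). Bub1, a kinase of the spindle checkpoint, was listed at 0 in 2 of the 3 WT iWAT libraries and differed by 1.81 ± 0.13 (limma adjusted p = 3.71e-07). Cdk1, the kinase that starts mitosis, had effects of -0.99 in iWAT and -1.37 at day 7, and its difference of 0.38 ± 0.16 did not pass (limma adjusted p = 0.0623).

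Of 31 stress and immediate-early genes, 6 (19.4%) were higher and 11 (35.5%) lower on the difference, with a median of -0.34. Most genes named below are among those 11. The list as a whole moved in both directions: 3 rose and 2 fell in iWAT, and 11 (35.5%) rose and 14 (45.2%) fell at day 7. Its median effect was -0.15 in iWAT and -0.19 at day 7. Ddit3, the factor CHOP of the integrated stress response, had 38.4, 42.9 and 37.4 FPKM in NFIA-Tg iWAT and 31.7, 29.1 and 29.3 FPKM in WT iWAT. At day 7, Ddit3 had 885, 809 and 838 FPKM in day 7 cultures labelled NFIA-Tg and 60.4, 59.98 and 55.2 FPKM in WT cultures. It rose in both systems, by 0.39 in iWAT and 3.83 at day 7, with a difference of -3.44 ± 0.10 (limma adjusted p = 2.19e-09). Hspa5, the chaperone BiP of the endoplasmic reticulum, had 158, 189.98 and 232 FPKM in NFIA-Tg iWAT and 129.8, 146 and 185 FPKM in WT iWAT, and at day 7 it had 2994, 2677 and 2978 FPKM in day 7 cultures labelled NFIA-Tg and 297, 301 and 313 FPKM in WT cultures (difference -2.92 ± 0.20). Atf4, Trib3 and Chac1, which take part in the same response as Ddit3, differed by -1.39 ± 0.16, -2.90 ± 0.18 and -2.26 ± 0.16, and Hmox1, heme oxygenase 1, by -3.53 ± 0.20. Gadd45a, induced by DNA damage, had 4.33, 4.17 and 3.49 FPKM in NFIA-Tg iWAT and 8.98, 6.81 and 8.03 FPKM in WT iWAT. At day 7, Gadd45a had 59.7, 64.1 and 63.7 FPKM in day 7 cultures labelled NFIA-Tg and 15.4, 15.9 and 18.001 FPKM in WT cultures. It fell in tissue and rose in culture (difference -2.704 ± 0.14, limma adjusted p = 6.08e-08), and its relative Gadd45b did the reverse, with 0.82 in iWAT and -1.60 at day 7. Asns, asparagine synthetase and also a gene of that response, rose by 0.94 in iWAT and 0.77 at day 7, and its difference did not pass (limma adjusted p = 0.227).

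Most endothelial, macrophage and lymphocyte markers passed the low-value filter through iWAT alone, 14 of 18, 19 of 25 and 8 of 8, and for these the difference largely repeats the tissue effect. Of 18 endothelial markers, 5 fell and none rose in iWAT, and their sum was 1012 to 1219 FPKM in NFIA-Tg iWAT and 1671 to 1750.3 in WT iWAT. At day 7 the sum was 7.99 to 8.72 FPKM in cultures labelled NFIA-Tg and 6.43 to 7.08 in WT cultures. On the difference 10 were lower and 2 higher, or 2 and 1 of the 4 left where at least 1 FPKM was required in each system. Pecam1, the adhesion molecule CD31, had 103, 93.9 and 88.5 FPKM in NFIA-Tg iWAT and 119.8, 155 and 145 FPKM in WT iWAT, and at day 7 it had 2.92, 2.695 and 3.33 FPKM in day 7 cultures labelled NFIA-Tg and 0.0956, 0.1401 and 0.164 FPKM in WT cultures (difference -2.36 ± 0.14, limma adjusted p = 1.45e-07). Of 25 macrophage markers, 8 were lower and 2 higher on the difference, or 4 and 1 of the 6 left under the same requirement. Of 8 lymphocyte markers tested, 2 were lower, among them Cd52, which had 13.2, 15.2 and 18.03 FPKM in NFIA-Tg iWAT and 37.4, 24.9 and 27.5 FPKM in WT iWAT and was listed at 0 in all 6 day 7 libraries, so that its difference of -0.90 ± 0.20 is its tissue effect.

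Of 15 markers of pericytes and smooth muscle, 5 (33.3%) were higher and 3 (20%) lower, near the 35.8% and 18.5% of all genes. Des, the filament protein desmin, had 8.895, 6.57 and 6.46 FPKM in NFIA-Tg iWAT and 9.47, 7.83 and 12.4 FPKM in WT iWAT, and at day 7 it had 10.99, 9.87 and 10.6 FPKM in day 7 cultures labelled NFIA-Tg and 1.44, 1.33 and 1.54 FPKM in WT cultures (difference -2.62 ± 0.21, limma adjusted p = 9.89e-07). Of 6 skeletal muscle markers tested, 1 was higher and 2 lower, and only 2 of the 6 passed the low-value filter in both systems. Acta1, skeletal muscle actin, had 21.6, 11.4 and 33.2 FPKM in NFIA-Tg iWAT and 181, 121 and 102 FPKM in WT iWAT, and at day 7 it had 4.08, 4.54 and 4.71 FPKM in day 7 cultures labelled NFIA-Tg and 2.13, 2.82 and 2.98 FPKM in WT cultures. It differed by -3.22 ± 0.42 (limma adjusted p = 5.28e-05). The sum of the 12 muscle markers was 83.5 to 124 FPKM in NFIA-Tg iWAT and 163 to 249.9 in WT iWAT. Of 10 Schwann cell and nerve markers, 4 (40%) were higher, beside 35.8% of all genes. Of these 10, 5 passed the low-value filter through iWAT alone, 2 through culture alone and 3 in both systems. Ngfr, the p75 neurotrophin receptor, had 0.432, 0.223 and 0.364 FPKM in NFIA-Tg iWAT and 1.32, 0.567 and 0.6796 FPKM in WT iWAT, and at day 7 it had 0.222, 0.2898 and 0.263 FPKM in day 7 cultures labelled NFIA-Tg and 18.9, 21.4 and 19.1 FPKM in WT cultures (difference 3.59 ± 0.19, limma adjusted p = 6.37e-08). It passed the low-value filter through culture alone. Of 10 neutrophil and mast cell markers, 4 (40%) were higher, beside 35.8% of all genes. Of these 10, 7 passed the filter through iWAT alone, 2 through culture alone and 1 in both systems, so most of these differences largely repeat an effect in 1 system. Among the 4 was Camp, which was listed at 0 in all 6 iWAT libraries and had 0.378, 0.127 and 0.0995 FPKM in day 7 cultures labelled NFIA-Tg and 1.197, 1.01 and 1.44 FPKM in WT cultures, so that its difference is its culture effect with the sign turned. Krt19, a keratin and 1 of 2 mesothelial markers tested, differed by -0.53 ± 0.20 (limma adjusted p = 0.0381), a call lost under 9 of 27 alternatives. None of the 6 erythroid genes tested was called in either system or on the difference by limma. The sum of the 8 listed was 25912 FPKM in replicate 1 of WT iWAT and 4307 to 9838 in the other 5 tissue libraries. No mammary epithelial marker passed the low-value filter.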

How the data were processed

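The deposited values are FPKM per gene, 1 file per library, on gene symbols. The authors' processing is named only in part: STAR 2.7.8a, StringTie 2.1.1 and build mm9 per the submitters' processing notes, with no role or order, and per the file headers the culture tables derive from STAR gene counts. The deposited length column holds the span of the locus in iWAT files and the exonic length in culture files. At day 7, FPKM times length gave whole reads (within 0.01) for 99.93% to 99.97% of values.

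The iWAT and culture tables share 24338 symbols, and 410 iWAT entries under 180 symbols were summed. Genes with at least 1 FPKM in at least 3 of the 12 libraries were kept (13101). log2(FPKM + 1) was tested with limma 3.58.1 (R 4.3.3; eBayes with trend), which understates changes of low genes. The difference came from 1 fit of 4 group means (8 residual degrees of freedom), and each genotype effect from its own 6 libraries (4 degrees). These fits estimate spread separately, so the SE of a difference can be below that of the iWAT effect. For Adipoq the SE was 0.17 in iWAT and 0.13 for the difference. Benjamini-Hochberg adjusted p-values cover all 13101 genes, and a call is an adjusted p under 0.05. On simulated data for the difference (12924 to 12963 genes, 200 seeded), 41, 179 and 200 seeded genes were recovered at log2 changes of 0.5, 1 and 2, and 24.1%, 13.5% and 12.7% of the calls were unchanged genes. With libraries weighted by system in the fit, 24, 170 and 200 were recovered, and 25%, 12.8% and 11.1% of the calls were unchanged genes. Each of these shares, with or without weights, is above the 0.05 that the adjusted p-value aims at, and the cause was not tested. Only 200 genes were changed, in NFIA-Tg iWAT alone, against 7120 called in the data. The shares therefore do not carry over to those calls.

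Same-numbered libraries had deviations correlated at 0.01 to 0.10 in iWAT and -0.04 to 0.08 at day 7. Differently numbered ones ranged from -0.14 to 0.07 in iWAT and from -0.12 to 0.14 at day 7. The labels state no pairing and these values cannot exclude one, and the main fit did not pair libraries. Genes and lists were chosen with earlier results of these data known. Named by rule were 11 regulators and fat cell genes, the 4 largest differences of each sign among genes expressed in both systems, the 4 leading genes of each direction class, and 1 or 2 members of each list by adjusted p. Some genes are not reported here. Other list members named were chosen after their values were seen. Lists were described by counts and medians without a set test. Promoters are from RefSeq (GRCm38.p6) and gene overlaps from GENCODE M21, used for names only. Alternatives changed the pseudocount, filter, scaling, variance model, libraries and gene lengths.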

Additional observations from a re-analysis of the deposited data

Results flagged for a closer look

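The genotype effect differed between iWAT and day 7 cultures, by the test of the difference itself, at 7120 of 13101 genes, and at 55 of the 60 genes named by rule. Most of the 60 were picked by a called difference or its adjusted p, so the 55 follows largely from the choice. The values that follow are log2 differences, the effect in iWAT (NFIA-Tg minus WT) minus the effect at day 7, from limma, and the cultures carry the label that Nfia goes against.

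Regulators and brown fat genes differed at Nfia (5.56), Nfib (-0.788), Nfic (1.05), Nfix (1.83), Ppargc1a (-3.09), Ucp1 (-6.74), Cidea (-2.16), Cox8b (-1.61) and Adipoq (1.86). Among genes with opposite directions in tissue and culture the differences were those of Sfrp1 (4.99), Itgad (-5.57), Lctl (-5.21), Gdf5 (3.70), Cspg4 (3.01), C3 (3.51), Lamb3 (-3.84) and Tmem45b (-3.71). Further large differences were found for Trf (4.75), Dcn (4.71), Cela1 (-5.60) and Coro6 (-4.72), and genes that rose in both systems differed at Pla2g2e (-2.64), Chchd10 (-1.05) and Gsta3 (-1.83). Nfia, Nfix, Itgad, Lctl, Gdf5, Lamb3 and Chchd10 overlap other genes on the opposite strand, and Trf one on its own strand.

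Metabolic genes differed at Ndufa6 (-1.30), Cox7a1 (-3.82), Pdha1 (0.904), Cpt1a (2.30), Acot2 (-1.40), Mrpl49 (1.05), Mrps10 (-0.733), Car3 (2.75), Acly (2.38), Scd1 (-4.42), Pfkp (-2.39) and Akt1 (0.927). Inflammatory, interferon, matrix, proliferation and stress genes differed at Cxcl12 (3.18), Csf1 (2.39), Il1r1 (2.35), Tnfaip3 (1.17), Oas1g (2.15), Oas2 (3.08), Col6a2 (2.08), Bub1 (1.81), Foxm1 (1.999), Ddit3 (-3.44) and Gadd45a (-2.70). Markers of other cell types differed at Cd52 (-0.898), Camp (0.887), Pecam1 (-2.36), Des (-2.62), Acta1 (-3.22), Fap (1.82), Ngfr (3.59) and Krt19 (-0.528), of which Cd52 was listed at 0 in all day 7 libraries and Camp in all iWAT libraries, so that each of these values is an effect in 1 system. Bub1 and Ngfr passed the low-value filter through culture alone. Pdha1, Mrpl49, Pfkp, Ddit3, Cd52 and Acta1 overlap genes on the opposite strand, and Foxm1 overlaps genes on its own strand.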

How the results depend on the processing

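Of the 55 named genes called on the difference, 52 kept their call and direction under all alternatives run for them, and none of the 55 changed direction. Most of the 55 were picked for large differences or small adjusted p-values, so they do not stand for all genes called. Cox8b lost its call under 10 alternatives (adjusted p 0.0508 to 0.0698), Chchd10 under 9 (0.0584 to 0.0755) and Krt19 under 9 (0.0652 to 0.121). Fam83d gained one without replicate 1 of NFIA-Tg iWAT (adjusted p = 0.00646). The cause of these changes was not tested.

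The count of 7120 genes called on the difference (4690 higher, 2430 lower) became 4382 (2997 higher, 1385 lower) where at least 5 FPKM was required in each system, which tests fewer genes. It became 141 (93 higher, 48 lower) where the lengths in both tables differed by at most 10%, which leaves 611 genes. The share called was 60.03% under the first setting and 23.1% under the second, against 54.3%, and the cause was not tested. Under these settings day 7 calls were 5956 and 219, and the lengths setting left 1 iWAT call and 0 genes in either class called in both systems. Leaving out 1 library gave 6226 to 7252 genes (4098 to 4881 higher, 2081 to 2501 lower). Day 0 cultures in place of day 7, chosen after seeing the data, gave 5315. Scaling changed the split: 53.1% of calls were higher after median-of-ratios scaling and 53.7% after quantile normalization, against 65.9%. The median difference changed sign under at least 1 setting for 9 of 24 gene lists, among them oxidative phosphorylation (-0.05 to 0.03 with TPM), the tricarboxylic acid cycle (0.15 to -0.03 with median-of-ratios scaling), the mitochondrial ribosome (0.01 to -0.17) and NF-kB signalling (0.11 to -0.11 with quantile normalization). For the erythroid and skeletal muscle lists it turned on replicates 1 and 3 of WT iWAT (-0.60 to 0.07 and -0.55 to 0.25 without them).

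The 1085 iWAT calls became 547 without a filter, 2133 with array weights and 204 to 775 with 1 library left out. The 301 opposite genes became 137, 666 and 59 to 302 under the same settings, and the 534 same-direction genes 245, 1005 and 88 to 540. Day 7 calls ranged from 8927 to 9257 with 1 library left out. Pearson's r of 0.135 became 0.170 with at least 1 FPKM required in each system and 0.201 with 5, and 0.106 to 0.146 with 1 library left out.

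With the replicate number as a block the difference was called at 7061 genes, iWAT at 284, and the classes held 75 opposite and 140 same-direction genes. The labels do not say if libraries of the same number belong together, and the correlations of their deviations cannot settle it.

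Unknown read depth in iWAT, and a tissue SE larger than that of culture, limit what the tissue effects can show.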
